A study of Mus musculus with 12 samples.

Results

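The comparison described here is that of PT (proximal tubule) cells without the TGF-β type II receptor, TβRII, kept in H2O2 and serum-free medium with the same cells left untreated. It was defined by the sample labels, and 6 of the 12 libraries of the series belong to it, 3 treated and 3 untreated. Of the 25514 genes in the count tables, 12971 had enough counts to be tested. The cells are conditionally immortalized mouse kidney cells of the genotype H2ts6;Tgfbr2-/-, which carry a temperature-sensitive T antigen, come from male mice and were made by adenoviral Cre treatment of floxed cells in culture, so they stand for 1 line. All groups were grown at 33 °C with interferon gamma and moved to 37 °C without it 5 days before the experiment. Untreated cells stayed in culture medium with 2.5% serum, hydrocortisone, insulin, transferrin, selenium and T3, and treated cells received H2O2, labelled as 200 mM, in serum-free medium for 24 h. The study's methods give the dose in micromolar units and place 24 h of serum starvation before H2O2. H2O2 and the change of medium went together in every treated library and cannot be told apart. Whether the serum-free medium kept hydrocortisone, insulin, transferrin, selenium and T3 is not given in the sources used here. The floxed parent cells, H2ts6;Tgfbr2fl/fl, were treated in the same way in another 6 libraries, which are used only to test where the response differed.

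Proximal tubule cells take back most of the filtered solutes, depend on mitochondrial oxidation for energy, and are the main site of injury in the kidney. H2O2 is a membrane-permeable oxidant. Cells that sense it are known to use the transcription factors Nrf2, p53 and FoxO. Serum supplies growth factors, lipoproteins and hormones: growth factors drive cells through the cycle and through AKT keep FoxO out of the nucleus, lipoprotein cholesterol holds back the SREBP2 transcription factor, and glucocorticoids act through a nuclear receptor that switches on its targets directly.

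The gene counts of the 6 libraries summed to between 16136084 and 20857618. Mitochondrial transcripts took 5.41% to 6.39% of the counts in untreated and 5.13% to 6.08% in treated cells. Tgfbr2 itself kept 6358 to 6782 normalized counts in untreated and 7116 to 7311 in treated TβRII-/- cells. That difference was 0.13 ± 0.07 on the log2 scale (SE, edgeR adjusted p = 0.122). These counts are over the whole transcript and not over the deleted part, so they do not check the genotype. Among proximal tubule genes, the endocytic receptor Lrp2 (megalin) lay between 10554 and 12151 normalized counts in all 6 libraries, with overlapping groups. The water channel Aqp1 and the kidney transcription factor Pax8 were also well expressed. In contrast, 12 of the 24 proximal tubule genes examined, among them the phosphate transporter Slc34a1, the glucose transporter Slc5a2, the organic anion transporters Slc22a6 and Slc22a8 and the regulator Hnf4a, had at most 3 counts in any of the 6 libraries. The markers of thick ascending limb and distal tubule summed to between 0.113 and 0.726 CPM (counts scaled to a common library total), and those of collecting duct to between 7.88 and 11.9 CPM. Other lists were not absent. Endothelial markers summed to 27.4 to 34.7 CPM untreated and 2.40 to 3.99 CPM treated, most of it Kdr, with 4 of 6 (Pecam1, Cdh5, Emcn and Tie1) at or below 3 counts. Podocyte markers summed to 62.6 to 66.9 and 74.0 to 76.9 CPM, with 2 of 5 at or below 3 counts, Nphs1 at 0. Immune cell markers summed to 56.2 to 58.1 and 64.0 to 71.5 CPM, with 4 of 9 at or below 3 counts, Adgre1 and Cd3e at 0. Markers of fibroblasts and mural cells summed to 140 to 155 and 38.5 to 46.4 CPM, with 2 of 7 (Lum and Rgs5) at or below 3 counts. The part of such cells in the results was not tested. In such bulk libraries, fewer cells that express a gene and less RNA per cell cannot be told apart.

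Treatment moved a large share of the transcriptome by small amounts. On a principal component analysis of the 6 libraries the first component held 60.7% of the variance and separated treated from untreated cells. At a Benjamini-Hochberg adjusted p under 0.05 by edgeR's quasi-likelihood test, 2658 genes rose (20.5% of those tested) and 2477 fell (19.1%). With a fold change of at least 1.5 as well, 592 rose (4.56%) and 488 fell (3.76%). Changes of at least 4-fold were seen in 26 genes that rose and 44 that fell. "Rose" and "fell" below refer to the adjusted p alone, SE is the standard error of a log2 fold change, and counts are normalized to the mean library. The median log2 fold change of all genes tested was 0.02, and that of each gene list is to be read against it.

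**Figure D1:**
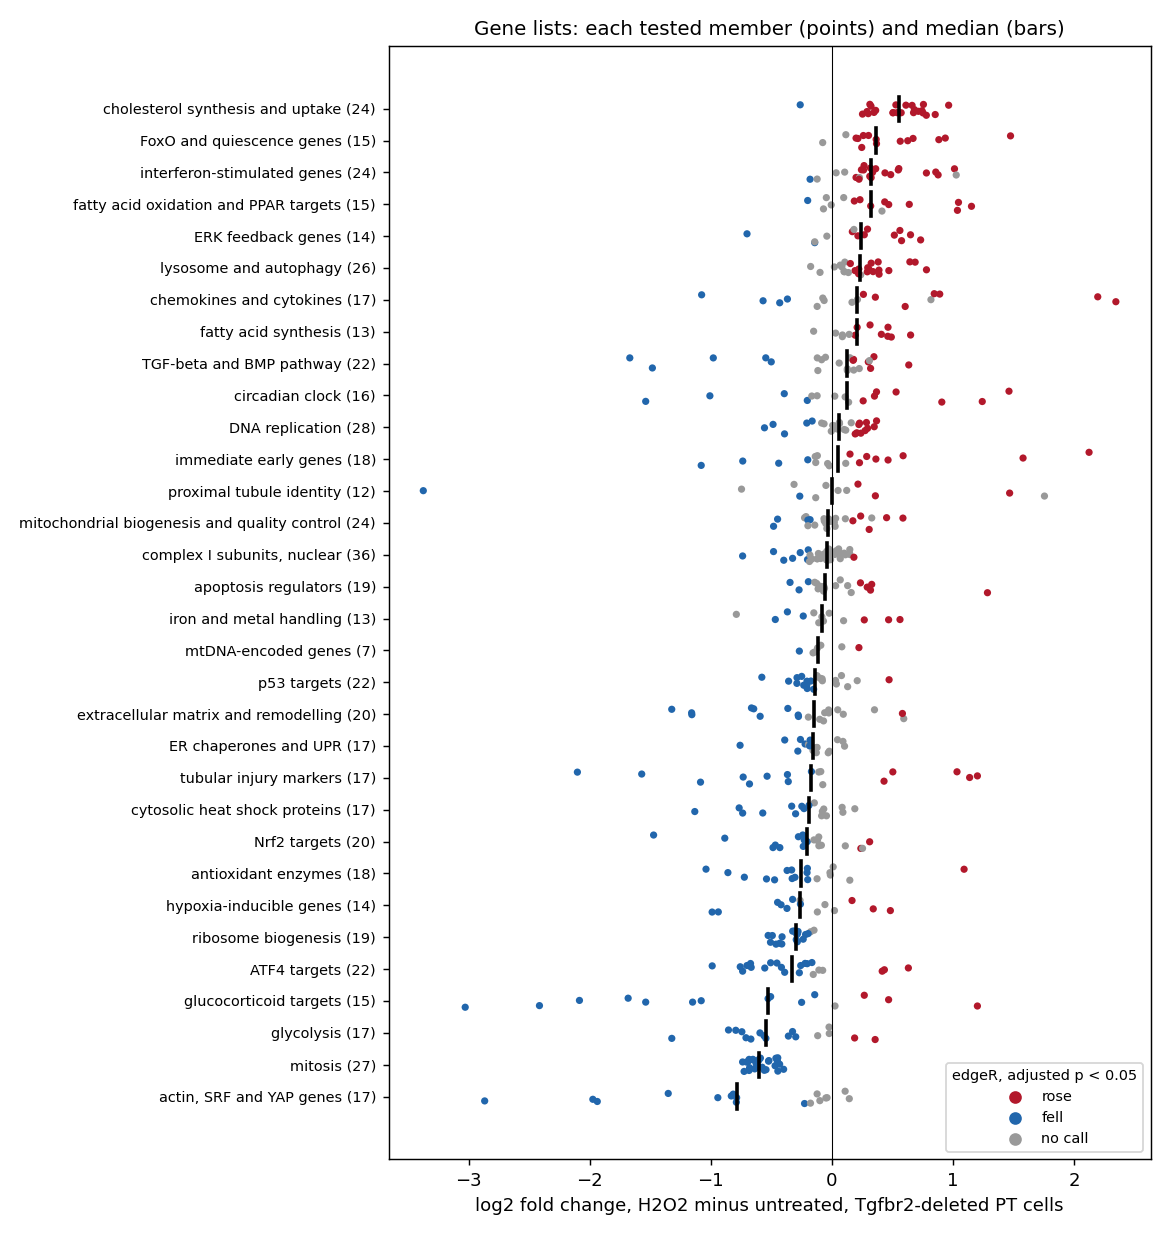
Log2 fold changes (H2O2 minus untreated) of every tested member of 32 gene lists in TβRII-/- PT cells, with the number of members in brackets, members that rose in red, fell in blue or had no call in grey, and the median of each list as a bar. Cholesterol genes lie furthest to the right with a median of 0.56, and the mitosis list (median -0.60) and the actin, SRF and YAP list (median -0.79) furthest to the left.

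The steepest falls included genes that glucocorticoids are known to induce. Of 15 tested targets 11 fell, 7 of them by at least 1.5-fold, 3 rose, and the median log2 fold change was -0.53. Sgk1, a kinase that supports sodium transport, had 1347, 1374 and 1307 normalized counts in untreated and 177, 155 and 162 in treated libraries. Its log2 fold change was -3.03 ± 0.08 (SE, edgeR adjusted p = 2.5e-23), and no treated library came near the untreated ones. The hypoxia-inducible factor subunit Hif3a fell from a mean of 1161 to 218 normalized counts, and the transcription repressor Zbtb16 from 1066 to 252. Tsc22d3, also called GILZ and a mediator of the anti-inflammatory action of the hormone, had 1390, 1417 and 1391 normalized counts untreated and 448, 421 and 440 treated. Fkbp5, a chaperone of the glucocorticoid receptor, fell by 1.15 on the log2 scale, the clock gene Per1 by 1.54 and the phosphatase Dusp1 by 1.08. The 3 members that rose were the metallothioneins Mt1 and Mt2, which bind zinc and copper, and the iron-trapping protein Lcn2. Mt1 rose by 0.47 and Lcn2 by 1.20 on the log2 scale, and Mt2 lost its call without replicate 2 of the treated cells (0.21, edgeR adjusted p = 0.0576). Hsd11b2, the enzyme that inactivates glucocorticoids, was among the 10 largest rises of protein-coding genes with a mean of at least 50 counts and groups that did not overlap, from 177, 179 and 205 normalized counts to 609, 581 and 584.

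**Figure D2:**
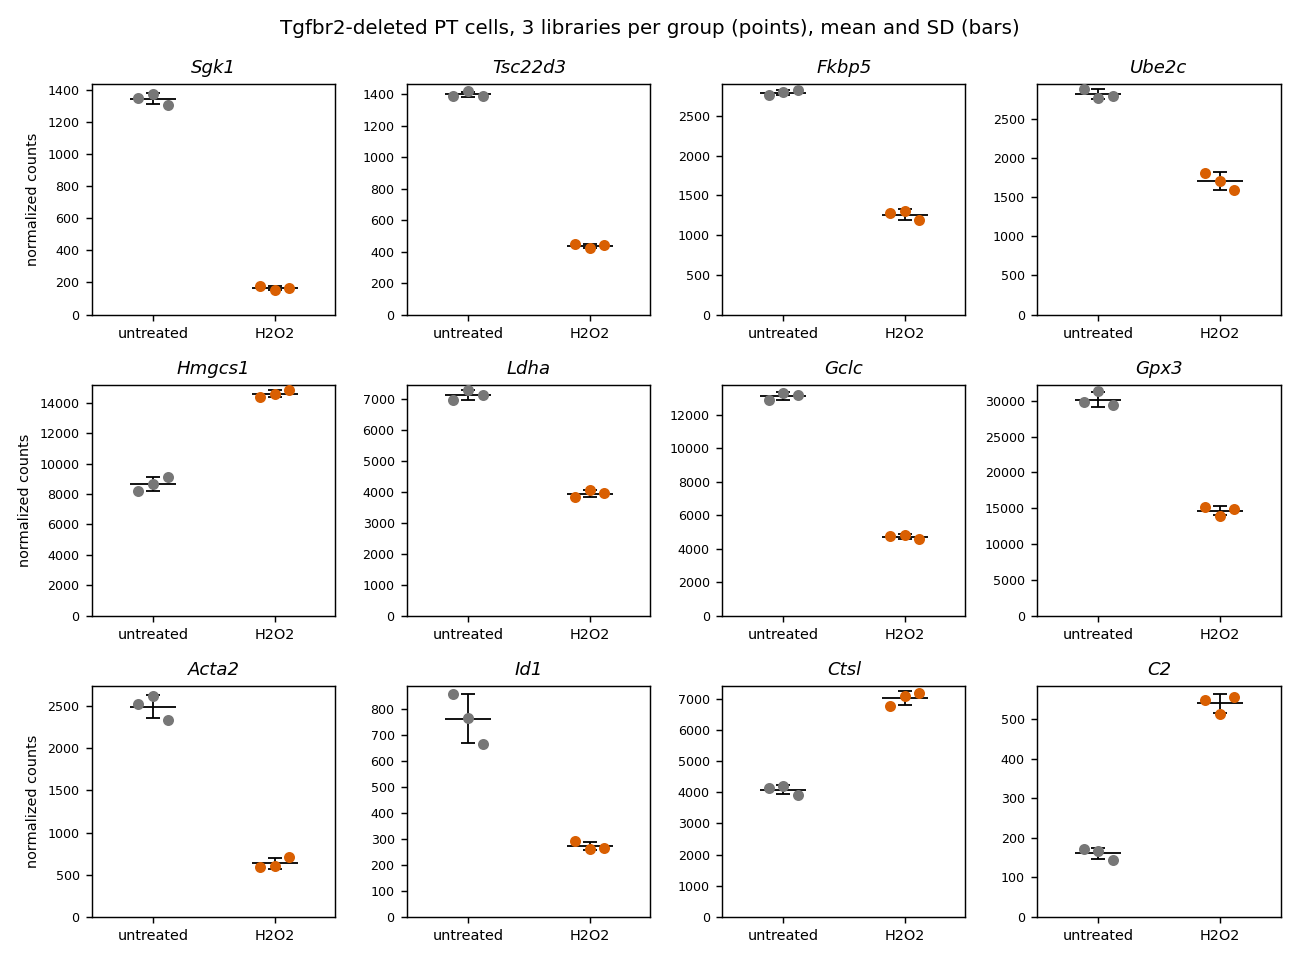
Normalized counts of 12 genes in the 3 untreated and 3 H2O2 libraries of TβRII-/- PT cells, on axes that start at 0, with the mean and SD of each group. In every panel the points of the groups stand apart: Sgk1, Tsc22d3, Fkbp5, Ube2c, Ldha, Gclc, Gpx3, Acta2 and Id1 are lower after H2O2, and Hmgcs1, Ctsl and C2 are higher.

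Genes of mitosis fell as a block, while those of DNA replication did not. All 27 mitosis genes tested fell, between 0.40 and 0.74 on the log2 scale, and 15 of them passed the 1.5-fold limit. The median was -0.60. Ube2c, the ubiquitin-conjugating enzyme of the anaphase-promoting complex, had 2882, 2760 and 2795 normalized counts in untreated and 1808, 1710 and 1585 in treated libraries (log2 fold change -0.72 ± 0.06, edgeR adjusted p = 7.15e-11). The cyclin Ccnb1, which starts mitosis with Cdk1, fell from 1102, 1062 and 1108 to 645, 761 and 713. Similar falls were seen for the kinases Aurka (-0.69), Aurkb (-0.68) and Plk1 (-0.61) and for the survivin gene Birc5 (-0.74), on the log2 scale. The smallest was that of Mki67, which encodes the Ki-67 antigen, at -0.40 ± 0.07.

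Of the 28 replication genes, 10 rose, 5 fell and 13 had no call, none passed the 1.5-fold limit, and the median log2 fold change was 0.06. Those that rose included the licensing factors Cdt1 (0.37) and Cdc6 (0.35), which load the replicative helicase, and the helicase subunit Mcm6 (0.29), on the log2 scale. Those that fell were the ribonucleotide reductase subunits Rrm1 (-0.49) and Rrm2 (-0.56), the cyclins Ccne1 and Ccne2 and the thymidylate synthase Tyms. The number of replication genes that fell was 3 without replicate 2 of the untreated or replicate 1 of the treated cells, Ccne1 and Tyms being the members that lost their calls. Tyms also lost its call without replicate 3 of the untreated cells (edgeR adjusted p = 0.193) or replicates 2 or 3 of the treated cells (0.0586 and 0.121).

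**Figure D3:**
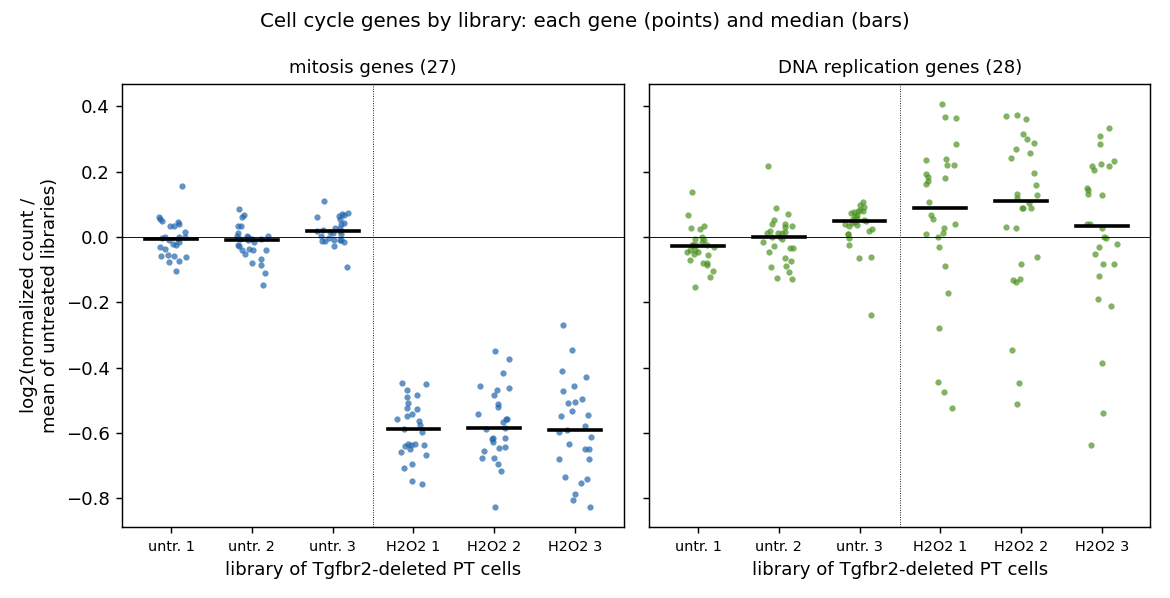
Log2 ratio of the normalized count in each of the 6 TβRII-/- libraries to the mean of the untreated libraries, for 27 mitosis genes (left) and 28 DNA replication genes (right), with each gene as a point and the median of a library as a bar. In the 3 H2O2 libraries every mitosis gene lies below 0, while the replication genes spread to both sides.

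The promoters of the mitosis genes share sequence, which is a property of the list chosen and no test of the response. G2 and M phase genes are known to be read through a CHR (cell cycle genes homology region) and CCAAT boxes. In RefSeq windows of 250 bases before to 50 after a gene's start (GRCm38.p6), the CHR letters TTTGAA stood on either strand in 77.3% of the 22 windows of 21 mitosis genes, and in 17.9% of all 32851 windows. CCAAT, also on either strand, was in 90.9% of them and in 37.4% of all windows. These are matches of letters and not sites of binding. The windows of the cyclin Ccnb2, the anaphase activator Cdc20 and the kinase Plk1 are shown because each holds both, with CHR and CCAAT in capitals.
Ccnb2, chr9:70421505-70421804 (minus strand): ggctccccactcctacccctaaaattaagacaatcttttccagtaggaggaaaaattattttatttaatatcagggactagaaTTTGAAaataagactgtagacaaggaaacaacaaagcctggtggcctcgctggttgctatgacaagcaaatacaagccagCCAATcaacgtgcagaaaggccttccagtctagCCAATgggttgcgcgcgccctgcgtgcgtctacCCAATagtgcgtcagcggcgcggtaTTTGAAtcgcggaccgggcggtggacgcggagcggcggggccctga
Cdc20, chr4:118437294-118437593 (minus strand): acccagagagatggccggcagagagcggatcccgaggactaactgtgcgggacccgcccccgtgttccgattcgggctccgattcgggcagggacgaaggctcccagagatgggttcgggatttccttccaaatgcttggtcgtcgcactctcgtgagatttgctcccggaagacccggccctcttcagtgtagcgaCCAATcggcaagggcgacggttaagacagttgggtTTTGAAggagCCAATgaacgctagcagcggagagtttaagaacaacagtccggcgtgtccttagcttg
Plk1, chr7:122159185-122159484 (plus strand): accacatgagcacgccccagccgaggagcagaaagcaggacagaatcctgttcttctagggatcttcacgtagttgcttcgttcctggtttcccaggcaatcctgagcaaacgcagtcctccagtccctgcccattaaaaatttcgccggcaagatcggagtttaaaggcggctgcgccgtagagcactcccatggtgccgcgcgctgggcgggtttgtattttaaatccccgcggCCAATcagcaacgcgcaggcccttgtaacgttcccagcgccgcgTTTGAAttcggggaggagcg
In Ccnb2, which fell by 0.54 on the log2 scale, CCAAT boxes start at bases -87, -54 and -21 from the start site, and a CHR lies from base 5 to 10. Cdc20 and Plk1 fell by 0.59 and 0.61. E2F letters, TTTNNCGC, were found in 42.9% of the 28 windows of the replication genes and in 5.17% of all windows.

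Cholesterol synthesis was the list with the highest share of rises. Of 24 genes of synthesis and uptake 23 rose, 11 of them by at least 1.5-fold, and the median log2 fold change was 0.56. Hmgcs1, which makes HMG-CoA for the pathway, showed the largest gain in counts of any gene that passed the fold limit, from 8223, 8663 and 9117 to 14401, 14560 and 14857 normalized counts (log2 fold change 0.75 ± 0.07, edgeR adjusted p = 1.52e-10). The next largest gain was that of Cyp51, the lanosterol demethylase, from a mean of 7529 to 11919. Insig1, which holds the SREBP complex in the endoplasmic reticulum, rose by 0.85 and Tm7sf2, a sterol reductase, by 0.96 on the log2 scale. Phosphomevalonate kinase, Pmvk, was the exception and fell by 0.26. Of 13 fatty acid synthesis genes, 8 rose and none fell (median 0.21), led by the elongase Elovl6 (0.65) and followed by the desaturase Scd1 (0.49) and the synthase Fasn (0.46). The number that rose was 5 without replicate 2 of the untreated cells or replicates 1 or 3 of the treated cells.

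The letters of a sterol element, TCACNCCAC, were present on either strand in 1.24% of all promoter windows and, of 16 cholesterol genes with a window, only in that of Hmgcs1. It is shown because this gene gained the most counts, with the element in capitals.
Hmgcs1, chr13:119690101-119690400 (plus strand): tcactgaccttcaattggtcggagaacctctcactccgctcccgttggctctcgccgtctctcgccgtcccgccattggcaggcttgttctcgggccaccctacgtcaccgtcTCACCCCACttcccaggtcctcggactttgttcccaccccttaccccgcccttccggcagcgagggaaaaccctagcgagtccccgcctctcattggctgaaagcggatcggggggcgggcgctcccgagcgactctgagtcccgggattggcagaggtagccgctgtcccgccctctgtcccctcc
The match lies from base -137 to base -129 from the start site.

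Genes of the oxidant defence were mostly lower, not higher, in cells kept with H2O2 in serum-free medium for 24 h. Of 20 Nrf2 targets 11 fell and 2 rose (median -0.21), and of 18 antioxidant enzymes 12 fell and 1 rose (median -0.26). Gclc, the catalytic subunit that limits glutathione synthesis, went from 12844, 13301 and 13172 to 4785, 4823 and 4560 normalized counts. Its log2 fold change was -1.47 ± 0.06 (SE, edgeR adjusted p = 4.95e-19), the largest fall of both lists. The secreted glutathione peroxidase Gpx3 had 29808, 31363 and 29356 normalized counts untreated and 15191, 13893 and 14963 treated. Sulfiredoxin, Srxn1, which repairs oxidized peroxiredoxins, fell by 0.88, the peroxidase Gpx1 by 0.72, glutaredoxin, Glrx, by 0.86, and heme oxygenase, Hmox1, by 0.49 on the log2 scale. The Nrf2 targets that rose were the glutathione transferase Gstm1 (0.31) and the quinone reductase Nqo1. Nqo1 rose from 327, 353 and 402 to 416, 431 and 433 normalized counts, with an adjusted p of 0.0482 by edgeR, and lost its call under 9 of 15 alternatives. Catalase, Cat, had a log2 fold change of 0.01 ± 0.07 and an edgeR adjusted p of 0.913.

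Neither p53 targets nor heat shock genes rose as groups. Of 22 p53 targets, 11 fell and 1 rose, all by less than 1.5-fold (median -0.14). The cell cycle inhibitor Cdkn1a fell from a mean of 11996 to 10397 normalized counts (edgeR adjusted p = 0.0097, and 0.101 without replicate 3 of the treated cells) and the cyclin-like Ccng1 by 0.36 on the log2 scale. Trp53inp1, which takes part in autophagy and p53 signalling, rose by 0.47. The number of p53 targets that fell was 6 without replicate 1 of the untreated cells or replicate 3 of the treated cells, and 7 without replicate 2 of the treated cells. Of 17 cytosolic heat shock genes 9 fell and none rose, the inducible Hsp70 genes Hspa1a and Hspa1b being among the 8 without a call. The small heat shock protein Hspb1 had 246, 260 and 235 normalized counts untreated and 106, 111 and 121 treated, and its relative Cryab, one of the 5 largest losses in counts past the fold limit, went from 22554, 23073 and 22850 to 14232, 13537 and 13324. Among 19 regulators of apoptosis, 5 rose and 3 fell (26.3% and 15.8%, median -0.06), near the shares over all genes. Those that rose included the BH3-only genes Bmf (1.29) and Bcl2l11, which encodes BIM (0.32), and the caspase Casp9, and those that fell were Bcl2l1, Mcl1 and Bak1.

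The heat shock letters GAANNTTC were in 61.1% of the 18 windows of heat shock genes and in 7.86% of all windows, on either strand. The window of Hspb1, the heat shock gene with the largest fall, is shown with its matches in capitals.
Hspb1, chr5:135887669-135887968 (plus strand): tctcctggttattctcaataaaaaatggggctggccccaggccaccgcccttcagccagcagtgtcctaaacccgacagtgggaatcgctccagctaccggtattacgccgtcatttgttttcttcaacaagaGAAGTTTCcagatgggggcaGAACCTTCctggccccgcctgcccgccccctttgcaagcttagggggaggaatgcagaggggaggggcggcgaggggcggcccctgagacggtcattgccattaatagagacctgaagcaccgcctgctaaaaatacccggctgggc

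Genes of the contractile actin cytoskeleton fell the most as a list. Of 17 targets of SRF and YAP 10 fell, 9 of them by at least 1.5-fold, none rose, and the median log2 fold change was -0.79. Smooth muscle actin, Acta2, had 2530, 2616 and 2341 normalized counts untreated and 586, 609 and 713 treated (log2 fold change -1.97 ± 0.07, edgeR adjusted p = 1.32e-20). The actin cross-linker Tagln fell by 1.94, the matricellular factors Ccn2 and Ccn1 by 1.35 and 0.79, and the actinin Actn1 by 0.81 on the log2 scale. Vinculin, Vcl, and filamin, Flna, had no call. Acta2 is also 1 of 7 markers of fibroblasts and mural cells, whose sum, mostly Acta2, went from 140 to 155 CPM untreated to 38.5 to 46.4 CPM treated. Of the 4 that could be tested Acta2 fell and the proteoglycan Dcn rose, from a mean of 5.51 to 16.6 normalized counts. Dcn lost its call without replicate 1 of the untreated cells (1.19, edgeR adjusted p = 0.0551). Lum and Rgs5 were at or below 3 counts. The part of fibroblasts and mural cells in the result was not tested. Kdr, the VEGF receptor 2 and an endothelial marker, had the largest fall after Angptl7 among protein-coding genes with a mean of at least 50 counts and groups that did not overlap, from 584, 459 and 480 to 46, 39 and 60 normalized counts, in cells in which Pecam1 and Cdh5 stood at no more than 1 count.

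More matrix genes fell than rose, and the pathway of TGF-β and BMP went both ways. Of 20 matrix genes 9 fell and 1 rose (median -0.15). Lox, which cross-links collagen, fell by 1.32, periostin, Postn, by 1.16, and fibronectin, Fn1, by 0.65 on the log2 scale. The fibrillar collagen Col1a1 had 14 and 22 normalized counts on average and no call. In the pathway of TGF-β and BMP, 6 of 22 genes rose and 5 fell (27.3% and 22.7%, median 0.13), near the shares over all genes. The ligand Tgfb1 rose from 929, 849 and 783 to 1362, 1225 and 1392 normalized counts, and Tgfb2 fell from 1885, 2126 and 1843 to 968, 898 and 1110. Their opposite changes were 0.64 ± 0.07 and -0.98 ± 0.08 on the log2 scale. The inhibitors of differentiation Id1, Id2 and Id3, classic BMP targets, all fell. Id1 went from 857, 767 and 666 to 293, 263 and 264 normalized counts, and Id3 fell by 1.67 on the log2 scale. The receptors Tgfbr1 and Bmpr2 had log2 fold changes of -0.08 and 0.18, and Smad2, Smad3, Smad4, Smad6 and Smad7 had no call.

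Genes known to be switched on when growth factor signalling is low rose together. Of 15 FoxO and quiescence genes 13 rose and none fell (median 0.37). Pik3ip1, an inhibitor of PI3-kinase, had 62.7, 40.7 and 53.6 normalized counts untreated and 150, 143 and 143 treated. The antiproliferative factor Btg1 went from 1572, 1828 and 1677 to 3227, 3125 and 3017 (log2 fold change 0.88 ± 0.07, edgeR adjusted p = 6.78e-12). Smaller rises were measured for Klhl24 (0.67), the stress sensor Sesn3 (0.63), the thioredoxin inhibitor Txnip (0.56), the insulin receptor Insr (0.37) and the CDK inhibitor Cdkn1b (0.22). Of 14 feedback genes of ERK signalling 9 rose and 2 fell (median 0.24), with Dusp4 (0.73), Spred3 (0.65) and Spry2 (0.58) among the rises and Dusp5 (-0.70) the larger fall. Immediate early genes were mixed: of 18, 8 rose, among them Egr1 (0.46), Fos (0.59) and Jun (0.29), and 4 fell, among them Fosl1 (-0.74) and Myc (-0.20).

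Most glycolysis genes fell, and genes of fatty acid oxidation and PPAR targets rose more often than they fell. Of 17 glycolysis genes 12 fell and 2 rose (median -0.55). Lactate dehydrogenase, Ldha, had 6990, 7301 and 7140 normalized counts untreated and 3836, 4053 and 3970 treated (log2 fold change -0.85 ± 0.06, edgeR adjusted p = 3.71e-12). The lactate exporter Slc16a3 fell by 1.32, the enolase Eno1 by 0.71, Pgam1 by 0.74 and the glucose transporter Slc2a1 by 0.54 on the log2 scale. The phosphofructokinases split, with Pfkl at -0.56 and Pfkm at 0.36. Of 15 such genes 9 rose and 1 fell (median 0.32), the former being 7 under DESeq2, without a filter, with the replicate block and without replicates 2 or 3 of the untreated or of the treated cells. Cpt1a, which lets fatty acids into mitochondria, went from 1301, 1312 and 1365 to 2583, 2860 and 2721 normalized counts, the carnitine carrier Slc25a20 rose by 0.64, and the lipid droplet protein Plin2 by 0.47. Ppara and Cd36 stood at no more than 8 and 1 counts. Of 14 hypoxia-inducible genes 7 fell and 3 rose (median -0.26), Egln3 by 0.94.

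Most genes of mitochondria had no call. Of 36 nuclear genes of complex I, 28 had no call, 7 fell (19.4%, against 19.1% of all genes) and 1 rose, with a median of -0.04, and the number that fell was 4 without replicate 2 of the untreated cells or replicates 1 or 3 of the treated cells. Ndufb8 was the only one past the fold limit and went from 4361, 4283 and 4122 to 2429, 2723 and 2504 normalized counts. Of 7 tested genes of the mitochondrial genome mt-Nd2 rose (0.22, edgeR adjusted p = 0.047) and mt-Co1 fell (-0.27, edgeR adjusted p = 0.0265). Both lost their calls without 1 of several libraries, mt-Nd2 without replicate 1 or 2 of the untreated or 2 or 3 of the treated cells, mt-Co1 without replicate 2 or 3 of the untreated or 1 or 3 of the treated cells (adjusted p between 0.0552 and 0.223). The groups overlapped for both, and mt-Co1 had 320989, 377668 and 389110 normalized counts untreated and 272502, 323936 and 306586 treated. Of 24 genes of mitochondrial biogenesis and quality control, 5 rose (20.8%) and 4 fell (16.7%), close to the shares over all genes. The coactivator Ppargc1a rose from 395, 417 and 465 to 571, 601 and 578 normalized counts, while Tfam, the factor that packages mitochondrial DNA, had a log2 fold change of 0.02 ± 0.08 (edgeR adjusted p = 0.86).

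Genes of lysosomes rose. Of 26 lysosome and autophagy genes 16 rose and none fell (median 0.23). The proteases Ctsl and Ctsa, with Clu, followed Hmgcs1 and Cyp51 among the 5 largest gains in counts past the fold limit. Ctsl went from 4137, 4203 and 3909 to 6768, 7098 and 7189 normalized counts (log2 fold change 0.78 ± 0.07, edgeR adjusted p = 5.94e-11). The hexosaminidase Hexa rose by 0.64, the calcium channel Mcoln1 by 0.47 and progranulin, Grn, by 0.39 on the log2 scale, while the regulators Tfeb and Ulk1 had no call. The E-box CACGTGAC known from lysosomal genes was in 24.0% of the 25 windows of the list and in 2.25% of all windows. Letters on both strands were counted.

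Transcripts of ATF4 targets and of ribosome biogenesis genes fell. Of 22 ATF4 targets 16 fell and 3 rose (median -0.33), and of 19 ribosome biogenesis genes 17 fell and none rose (median -0.29). Asparagine synthetase, Asns, went from 2394, 2574 and 2749 to 1607, 1560 and 1582 normalized counts. The serine synthesis genes Psat1 and Psph fell by 0.67 and 0.74, the mitochondrial folate enzyme Mthfd2 by 0.67, the amino acid exchanger Slc7a5 by 0.76, and Chac1, which degrades glutathione, by 0.99 on the log2 scale. The members that rose were Atf5, Trib3 and Vldlr, of which Trib3 lost its call without replicate 1 of the untreated (edgeR adjusted p = 0.07) or replicate 2 of the treated cells (0.079). The nucleolar proteins nucleolin, Ncl, and nucleophosmin, Npm1, fell by 0.46 and 0.49. None of the ribosome genes reached 1.5-fold. Of 17 chaperones of the endoplasmic reticulum 7 fell and none rose, the largest fall being that of Herpud1 (-0.76). That count was 4 without replicate 2 of the untreated or of the treated cells, and 12 in a fit of the 6 libraries alone. The ATF4 letters TTGCATCA were in 21.7% of the 23 windows of the ATF4 list and in 0.895% of all windows. The window of Chac1, the member with the largest fall, is shown with the match in capitals.
Chac1, chr2:119350992-119351291 (plus strand): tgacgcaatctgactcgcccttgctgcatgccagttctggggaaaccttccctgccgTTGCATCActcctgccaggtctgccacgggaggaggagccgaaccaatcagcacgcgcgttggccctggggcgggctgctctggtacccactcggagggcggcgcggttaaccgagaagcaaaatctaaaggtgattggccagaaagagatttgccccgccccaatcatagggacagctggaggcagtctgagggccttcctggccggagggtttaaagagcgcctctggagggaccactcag

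Interferon-stimulated genes rose. Of 24 interferon-stimulated genes 18 rose and 1, Ifit3, fell (median 0.32). The fall of Ifit3 lost its call without replicate 2 of the untreated or replicates 1 or 3 of the treated cells, with edgeR adjusted p of 0.123, 0.089 and 0.099. Rsad2, which encodes viperin, had 57.5, 46.5 and 46.9 normalized counts untreated and 105, 95.9 and 103 treated. The regulators Irf7 and Stat2 rose by 0.88 and 0.49, and the sensor Ifih1 by 0.55 on the log2 scale, while Isg15 and Cxcl10 had no call. The complement proteases C1s1 and C2 were among the 10 largest rises by the same rule as Hsd11b2. C1s1 went from 36.6, 25.2 and 32.6 to 182, 197 and 205 normalized counts, and C2 from 172, 166 and 145 to 549, 513 and 557. C2 overlaps other annotated transcripts, so its counts may include shared reads. The MHC class II activator Ciita rose from a mean of 25.7 to one of 102 normalized counts, with no overlap of the groups (log2 fold change 1.98 ± 0.22, edgeR adjusted p = 1.75e-08). Of 17 chemokines and cytokines tested 7 rose and 4 fell. Ccl2, which attracts monocytes, went from 157, 171 and 138 to 288, 286 and 290 normalized counts, Ccl20 from 10.5, 14.5 and 17.2 to 71.1, 68.4 and 78.6, and the neutrophil attractant Cxcl1 fell by 0.57 on the log2 scale. Il6, Il1a, Il1b and Tnf had no count in any of the 6 libraries. Interferon letters, GAAANNGAA, stood in 48.1% of the 27 windows of the interferon list and in 8.56% of all windows, on either strand. The window of Ifit1, a member that rose by 0.78, is shown with 3 matches in capitals, 2 of which overlap.
Ifit1, chr19:34640639-34640938 (plus strand): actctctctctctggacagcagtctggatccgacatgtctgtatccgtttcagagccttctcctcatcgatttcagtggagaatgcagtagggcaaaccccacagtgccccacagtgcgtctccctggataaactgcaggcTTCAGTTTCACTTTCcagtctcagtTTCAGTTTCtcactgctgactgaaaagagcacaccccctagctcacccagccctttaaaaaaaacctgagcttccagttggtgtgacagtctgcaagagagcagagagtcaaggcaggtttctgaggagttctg

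Markers of tubular injury went both ways. Of 17, 9 fell and 5 rose (median -0.17). Kidney injury molecule 1, Havcr1, had 188, 146 and 160 normalized counts untreated and 68.3, 76.3 and 88.5 treated. The keratins Krt20, Krt19, Krt8 and Krt18 all fell, Krt20 from 2637, 2576 and 2697 to 588, 642 and 612. Clusterin, Clu, a secreted chaperone, rose from 2426, 2483 and 2558 to 5355, 4922 and 5014, and the adhesion molecule Vcam1 from 19.9, 25.2 and 29.7 to 57.2, 48.8 and 60.7. Sox4 and Sox9 rose by 0.43 and 0.50, vimentin, Vim, and Cd44 fell by 0.36 and 0.53 on the log2 scale, and osteopontin, Spp1, had no call. Sox9 lost its call without replicate 2 of the treated cells (0.41, edgeR adjusted p = 0.0632). Of the 12 proximal tubule genes that could be tested 3 rose (25.0%), 2 fell (16.7%) and 7 had no call, near the shares over all genes. In the circadian clock, Per3 (1.24) and Dbp (0.91) rose and Per1 (-1.54), Nfil3 (-1.01) and Bmal1 (-0.39) fell on the log2 scale, 7 of 16 genes rising and 4 falling. Of 13 zinc and iron genes 3 rose and 3 fell (23.1% each), near the shares over all genes. Ferroportin, Slc40a1, was at 0.56 and the transferrin receptor Tfrc at -0.37 on the log2 scale.

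Other genes had larger changes than most members of the lists. Rerg, a RAS-related growth inhibitor, rose the most among protein-coding genes with a mean of at least 50 counts, from 11.5, 12.6 and 10.5 to 95.1, 114 and 87.5 normalized counts (log2 fold change 3.09 ± 0.25, edgeR adjusted p = 1.55e-11). The prostaglandin D synthase Ptgds went from 118, 92.9 and 88.1 to 570, 541 and 570. The axon guidance ligand Slit2 (1.97), the calpain-like Capn6 (1.83), corneodesmosin, Cdsn (1.71), and the matrix protein Papln (1.68) complete the 10 largest rises on the log2 scale. The angiopoietin-like Angptl7 had the largest fall, from 511, 495 and 420 to 45.2, 50.3 and 35.8. The sulfotransferase Sult1d1 went from 7431, 8606 and 8865 to 864, 1045 and 884 normalized counts. Further genes of the 10 largest falls were the epidermal envelope genes Sprr2g (-3.37) and Lce3c (-2.81), the folate hydrolase Folh1 (-2.83), the sodium leak channel Nalcn (-2.73) and the calcium-binding S100a7a (-2.35), on the log2 scale. The largest losses in counts past the fold limit were those of the scaffold protein Akap12, from a mean of 63754 to 39369, S100a6, from 30430 to 13814, the taurine transporter Slc6a6, from 41807 to 26187, Gpx3 and Cryab.

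The same treatment of the floxed parent cells shows where the response differed between the genotypes. Each genotype stands for 1 line, and only the TβRII-/- line went through Cre treatment, so a difference between the lines and one due to TβRII cannot be told apart. The libraries of the genotypes are separate, and no library enters both responses. In an interaction test over all 12 libraries 1321 genes (10.2% of those tested) differed in response, 506 with a higher and 815 with a lower log2 fold change in TβRII-/- cells. Across the 12971 genes the responses had a Pearson r of 0.573, a description over genes that share depth and libraries, and 3016 genes passed the test in the same direction in both genotypes against 126 in opposite directions. Mitosis and cholesterol genes held the most differences. For mitosis, 24 of 27 genes fell more in TβRII-/- cells, where the median was -0.60 against -0.23 in floxed cells. For cholesterol, 20 of 24 had a lower change in TβRII-/- cells, with medians of 0.56 and 1.15 in floxed cells. Pmvk, which fell in TβRII-/- cells, is among them. Of the 7 tested genes of the mitochondrial genome 5 differed, all with a lower change in TβRII-/- cells. Their median was -0.12 there against 0.36 in floxed cells, in which all 7 rose. Of the 15 glucocorticoid targets 4 differed, 3 upward and 1 downward, and none of the 24 interferon-stimulated genes did.

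**Figure D4:**
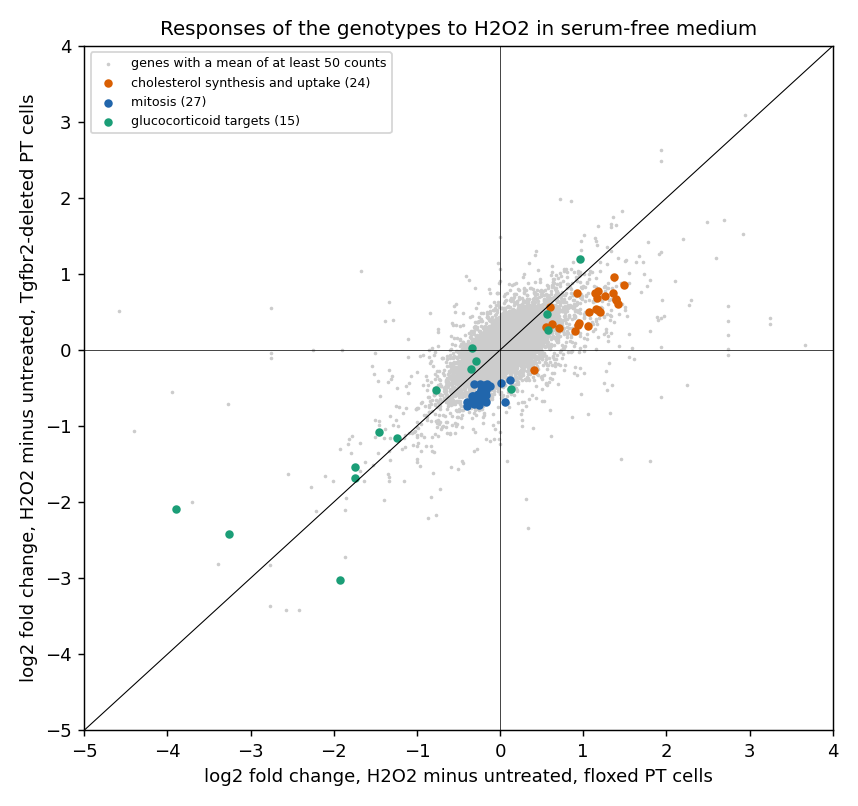
Log2 fold changes with H2O2 in floxed PT cells (horizontal) and in TβRII-/- PT cells (vertical) for 11124 genes with a mean of at least 50 counts in the TβRII-/- libraries, of which 3 lie outside the axes, with 3 gene lists in colour and a line of equal response. Cholesterol genes lie below the line at a median of 0.56 against 1.15, mitosis genes below it at -0.60 against -0.23, and most of the 15 glucocorticoid targets at the lower left.

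Some genes turned in opposite directions, and others were called in TβRII-/- cells but not in floxed cells. P2rx7, an ATP-gated channel, had 92.0, 86.2 and 76.6 normalized counts in untreated and 66.5, 60.5 and 58.7 in treated TβRII-/- cells, and 42.1, 25.6 and 40.9 against 87.3, 99.2 and 91.7 in floxed cells. Its fall in TβRII-/- cells had an edgeR adjusted p of 0.0318 and lost the call without replicates 1 or 2 of the untreated or 2 or 3 of the treated cells (0.0762 to 0.108), while its difference between the genotypes kept the call without any 1 of the 12 libraries. The cytochrome P450 Cyp4b1 fell by 0.83 in TβRII-/- cells and rose by 1.32 in floxed cells, on the log2 scale. Scnn1a, a subunit of the epithelial sodium channel, fell from 269, 262 and 285 to 60.9, 70.8 and 77.6 in TβRII-/- cells, where its difference from the floxed response was -2.28 ± 0.24 (edgeR adjusted p = 1.29e-07). In floxed cells Scnn1a had 65.2, 37.8 and 39.8 normalized counts untreated and 64.9, 54.8 and 58.5 treated, with no call (edgeR adjusted p = 0.209). Olfm1 rose from 61.7, 74.6 and 63.2 to 140, 141 and 162, whereas the floxed libraries lay between 866 and 973, with no call (edgeR adjusted p = 0.796). Pip5k1b and Fam107a passed the test as well (edgeR adjusted p = 0.0249 and 0.0428), but their highest values in a floxed library were 6.45 and 5.17 normalized counts, so no fold change is given for them there. The difference of Fam107a lost its call in 9 of 12 fits without 1 library (adjusted p between 0.0519 and 0.301), all but those without replicate 2 of the treated TβRII-/- cells, replicate 1 of the untreated floxed or replicate 3 of the treated floxed cells. That of Pip5k1b lost it in 4 of 12, without replicate 3 of the untreated or any 1 of the treated floxed cells (adjusted p between 0.0605 and 0.215).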

How the data were processed

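RNA was sequenced from 12 libraries of conditionally immortalized mouse PT cells, 3 in each of 4 groups, as poly(A)-selected Illumina TruSeq libraries. RNA extraction is given as a Qiagen kit in the labels and as a Macherey-Nagel kit in the study's methods. The authors aligned reads with STAR to GRCm38.p6 and counted them with featureCounts, per the submitters' processing notes. The deposited values are raw read counts per transcript, in which a read can count for several transcripts of a gene, so library sums exceed the number of reads. Whether the counting used strand is not given in the sources used here, and counts of overlapping genes and close paralogs are uncertain.

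Transcript identifiers were paired with genes through GENCODE M39, which held 104820 of 106332. The 1512 others took 1.221% to 1.281% of the counts. Each of 25514 genes (17419 with more than 1 transcript) was represented by the transcript of largest summed count in the 12 libraries. The counts had been planned as gene counts. Genes were filtered with filterByExpr over the 4 groups, scaled by TMM and tested with edgeR 4.0.16 (limma 3.58.1, R 4.3.3) quasi-likelihood tests on a mean per group, with p-values adjusted over all genes tested. SE is the size of the log2 fold change over the square root of the F statistic. DESeq2 1.42.0, which the authors used, was an alternative. In simulated data with 197 tested genes changed in TβRII-/- cells, edgeR recovered 83.8% at 1.5-fold and 92.4% at 2-fold, with 8 and 10 unchanged genes called. Only 200 genes were changed there, against 5135 called in the data, and the noise followed edgeR's own model. Recovery and false calls at the share of genes called here were not tested.

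The members and lists were chosen with earlier results of these data known. Named genes were list members, the 10 largest rises and falls among protein-coding genes whose mean reached 50 counts and whose groups did not overlap, the 5 largest gains and losses in counts past the fold limit, and the 5 most positive and negative genotype differences among protein-coding genes called in both tests. Further members of the lists and marker genes were named after their values were seen. Nothing says that replicates came from separate cultures, so p-values measure the spread between these libraries, which may be technical. Some genes are not reported here. Promoter windows and gene positions were taken from RefSeq (GRCm38.p6). Alternatives were another scaling, DESeq2, other filters, the replicate number as a block, the 6 libraries alone, other gene counts, removal of mitochondrial genes, the study's call limits and each TβRII-/- library left out, with each floxed library left out as one chosen after seeing the data.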

Additional observations from a re-analysis of the deposited data

Results flagged for a closer look

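For 60 of the 194 genes named above, besides Pip5k1b and Fam107a with floxed counts near 0, the response to H2O2 differed between TβRII-/- and floxed PT cells in the interaction test (edgeR adjusted p under 0.05). The values below are the log2 fold change in TβRII-/- cells minus that in floxed cells. In 18 of the 60 the fitted changes had opposite signs.

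Mitosis genes had lower changes in TβRII-/- cells, with differences of -0.52 for Aurkb and Mki67, -0.47 for Ube2c, -0.42 for Cdc20, -0.40 for Ccnb1, -0.37 for Aurka, -0.34 for Birc5, -0.28 for Cdk1 and -0.27 for Plk1. Of the 28 replication genes 4 differed, all with a higher change in TβRII-/- cells. The cholesterol and fatty acid genes rose less, by -0.73 for Cyp51, -0.64 for Insig1, -0.49 for Elovl6, -0.40 for Tm7sf2 and -0.39 for Hmgcs1, and Pmvk, which fell in TβRII-/- and rose in floxed cells, differed by -0.67.

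Contractile, matrix and injury genes were also lower in response: Tagln by -1.11, Acta2 by -0.58, Fn1 by -0.70, Ccn1 by -0.49, Cd44 by -0.51 and Krt18 by -0.31. Sox9 (1.04), Sox4 (0.36) and Spp1 (0.35) differed in the other direction. Among the TGF-β and BMP genes the differences were -1.04 for Id1, -0.67 for Id2, -0.57 for Tgfbr2 and -0.37 for Tgfbr1. Of glucocorticoid targets Sgk1 fell more (-1.10), and Zbtb16 (1.81), Hif3a (0.84) and Dusp1 (0.37) fell less than in floxed cells.

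Positive differences were found for Btg1 (0.55), Bcl2l11 (0.43) and Klhl24 (0.35), for Ppargc1a (0.80), Slc25a20 (0.51), Plin2 (0.45) and Jun (0.46), and for Hspb1 (0.64), Cryab (0.51), Cxcl1 (0.54) and Cat (0.34). Negative ones were those of Dusp5 (-0.80), Aqp1 (-0.82), mt-Co1 (-0.52), Tfrc (-0.46), Egr1 (-0.42), Slc7a5 (-0.41), Srxn1 (-0.38) and Herpud1 (-0.34). The genes of large change with a difference were Sult1d1 (3.36), Olfm1 (1.17), Slit2 (1.11), S100a7a (-2.69), Scnn1a (-2.28), Cyp4b1 (-2.15), P2rx7 (-1.80), Angptl7 (-1.01) and Kdr (-0.84). Sult1d1 had 185, 252 and 279 normalized counts in untreated and 5.07, 1.03 and 1.15 in treated floxed cells. The latter are near 0, so the size of its difference is uncertain.

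Several of these calls were lost in fits without 1 library, with edgeR adjusted p between 0.0501 and 0.249 there. Some lay near the limit, such as that of Cdk1, with an edgeR adjusted p of 0.0481 in all 12 libraries. Its difference stayed between -0.24 and -0.30 in the fits without 1 library that lost its call. Without replicate 1 of the untreated TβRII-/- cells the call was lost for Angptl7, Cat, Cdk1, Hspb1, Kdr, Krt18 and Tm7sf2, without replicate 2 for Angptl7, Birc5, Cdk1, Krt18, Plk1 and Slit2, and without replicate 3 for Cdk1, Hspb1, Plk1 and Spp1. Without replicate 1 of the treated cells it was lost for Angptl7, Cat, Cdk1, Hspb1, Kdr, Krt18, mt-Co1, Plk1, Tgfbr1 and Tm7sf2, without replicate 2 for Birc5, Cat, Cdk1, Hspb1, Kdr, Klhl24, Krt18, Plk1 and Tm7sf2, and without replicate 3 for Angptl7, Cdk1, Hspb1, Plk1 and Spp1. Leaving out a floxed library, an alternative chosen after the data were seen, also cost calls. Without replicate 1 of the untreated floxed cells the call was lost for Cdk1 and Slit2, without replicate 2 for Hspb1, Kdr and Spp1, and without replicate 3 for Angptl7, Cat, Hspb1, Kdr and Tm7sf2. Without replicate 1 of the treated floxed cells it was lost for Angptl7, Cdk1, Hspb1, Kdr, Krt18 and Plk1, without replicate 2 for Angptl7, Cat, Kdr, Ppargc1a and Spp1, and without replicate 3 for Cat, Cdk1, Hspb1, Kdr, Plk1 and Spp1.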

How the results depend on the processing

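Of the 5135 genes called in TβRII-/- cells, between 4050 and 5134 kept their call and sign under each of 15 alternative fits, and none was called with the opposite sign. Without 1 TβRII-/- library, the number that rose lay between 2159 and 2355, that fell between 2007 and 2236, with the fold limit between 531 and 598 and between 463 and 495. The number that differed between genotypes lay between 833 and 1680 without 1 of the 12 libraries, with 833 without replicate 1 and 878 without replicate 2 of the treated TβRII-/- cells and 1020 to 1680 without 1 floxed library, an alternative chosen after seeing the data. A filter that asked every library for 10 counts or more left 324 that fell with the fold limit, out of fewer genes tested, and an unadjusted p under 0.01 with the fold limit gave 357 genotype differences. DESeq2 called 2398 that rose and 2345 that fell. With counts summed over transcripts, 2084 genes rose, 2391 fell and 962 differed between genotypes, against 2658, 2477 and 1321 in the main fit. Same-numbered libraries did not deviate together (correlations of 0.023, 0.019 and 0.008), so the numbers were not taken as pairs. With the replicate block 2590 genes rose, 2391 fell and 1202 differed between genotypes. The block removed the genotype calls of Cdk1 and Plk1 and the call of Nqo1. Summing transcripts removed the genotype calls of Angptl7, Birc5, Cat, Hspb1, Krt18, Plk1 and Slit2. It also removed the calls in TβRII-/- cells of Bmpr2, mt-Nd2, Nqo1, P2rx7, Pip5k1b and Sox9. Among counts of list members, 861 of 960 stayed within 1.5 times, and the causes of the others were not tested. Genes at or below 3 counts cannot be called absent at this depth.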
